A study of Mus musculus with 4 samples.

Results

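The interval described here spans 1.05 Mb from position 37000000 of mouse chromosome 18 (build mm9) and holds the alpha, beta and gamma clustered protocadherin genes. FAIRE-seq summits of 4 dentate gyrus libraries falling in it were joined wherever neighbours lay within 250 bp, which gave 38 regions of the 82899 found over the whole genome. FAIRE-seq recovers DNA that carries few nucleosomes, and a summit is the base at which the authors' peak caller placed the top of a peak. The libraries came from mice of strain C57BL6 around 9 weeks old, 2 titled WT and 2 titled Mbd1 KO, and the labels do not say whether they came from separate animals. Mbd1 KO mice lack Mbd1, a methyl-CpG-binding protein, and the labels do not describe the allele or name the cells it is lost from. The study asked which active regulatory elements differ between these genotypes.

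The labels disagree on 2 of the 4 libraries. For WT 1 the genotype field reads Mbd1 KO, and for Mbd1 KO 2 it reads WT, so libraries go by their titles below and the counts under the genotype field are given beside them. The lists held 38142 (WT 1), 46651 (WT 2), 56382 (Mbd1 KO 1) and 49671 (Mbd1 KO 2) summits, and read depth is not known from them. No mm9 annotation or sequence was used, so no region was assigned to a gene, the tissue was not checked against marker genes, and the Mbd1 gene was not used to check the labels. A region with no summit in a list is one that did not enter that list, which does not show closed chromatin.

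Clustered protocadherins are cell surface adhesion proteins of neurons. Each alpha and gamma transcript begins with a variable first exon that has a promoter of its own and is spliced to constant exons shared by the group, while the beta genes stand alone. A neuron uses a small, partly random set of these promoters, and the resulting surface code is known for self-recognition of dendrites and axons and for neuron survival and wiring. Promoter choice is known to depend on CTCF, a DNA-binding protein that holds chromatin loops, and on DNA methylation, since methylated variable promoters are silent. In the RefSeq gene table of build GRCm38 the order along the chromosome is alpha (14 genes, Pcdha1 to Pcdhac2), beta (22 genes, Pcdhb1 to Pcdhb22) and gamma (22 genes, Pcdhga1 to Pcdhgc5), 58 in all. In the same table Slc25a2 and Taf7, which are no protocadherins, also lie among them, Zmat2 is the last protein-coding gene before them, and Diaph1, Hdac3 and Rell2 follow. Positions in that table are of another build and were not used.

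The clearest feature of the interval was a set of regions listed in both libraries titled Mbd1 KO and in neither titled WT. Of the 38 regions, 11 (28.9%) had this pattern and 0 had the opposite one. Over all regions 4.07% had the first pattern and 0.975% the second. In the flanks, 36000000 to 36999999 and 38050001 to 39000000, 3 of 76 regions (3.95%) were of the first kind and 1 of the second. Members were chosen by position, and the interval itself was selected on the presence and score percentile of its summits in the titled groups, 2 of the 11 regions having been seen earlier, so these shares are a description and were not tested. By the genotype field, 0 of the 38 regions were specific to the Mbd1 KO pair and 0 to the WT pair, against 1.67% and 2.63% of all regions.

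**Figure D1:**
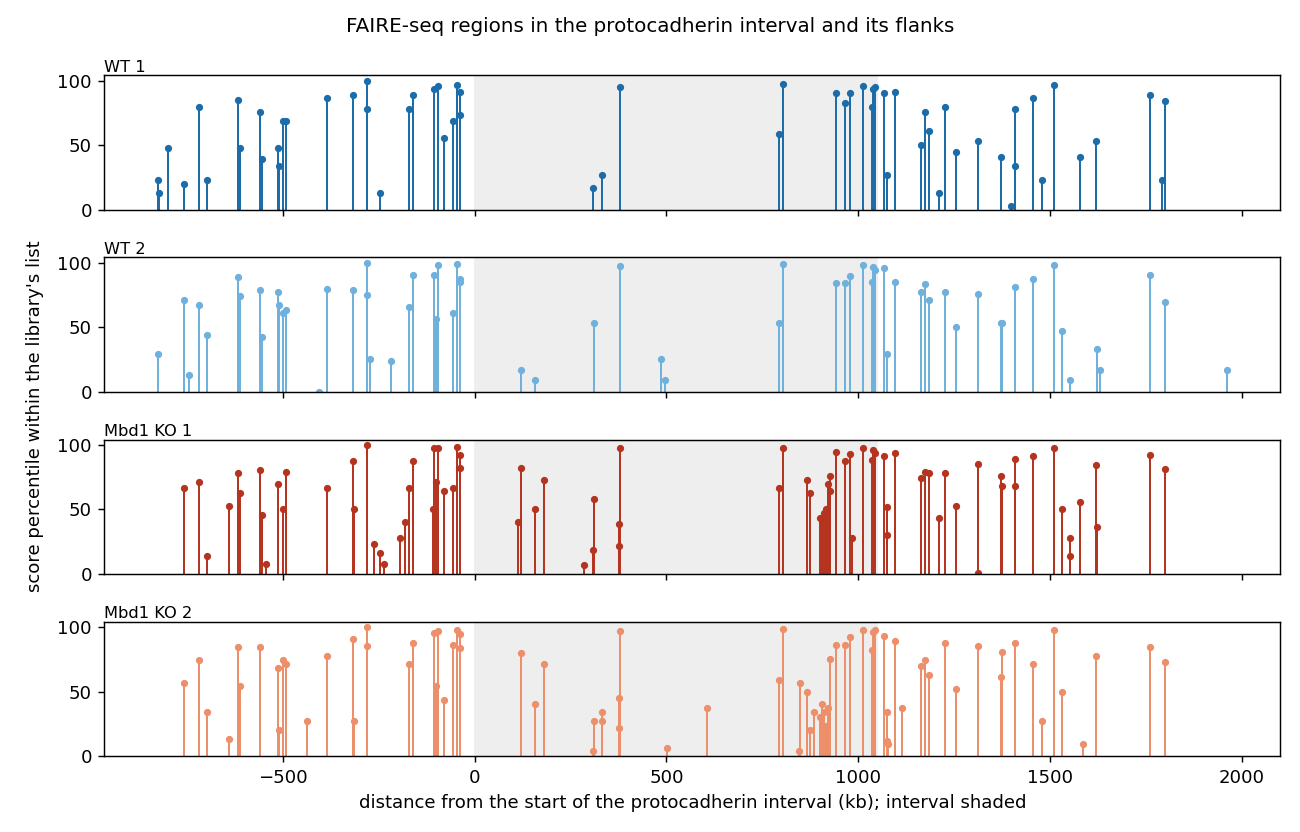
Score percentile of each region within its library's list (vertical axis, 0 to 100) by distance from the start of the protocadherin interval (horizontal axis, kb), for the 4 libraries by title, with the interval shaded and the flanks on both sides. Where a library has several summits in a region the highest is drawn. Strong regions stand at the same places in the 4 panels, and a dense group of lower regions in the right part of the shaded area is drawn in the 2 Mbd1 KO panels and absent from the 2 WT panels.

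Toward the far end of the interval, 8 of the 11 regions stood together in a stretch where neither library titled WT had a summit. This stretch of 139 kb ran from 37803925 to 37943242, between 2 regions shared by the 4 libraries. It held 0 summits in WT 1 and 0 in WT 2, against 9 in Mbd1 KO 1 and 11 in Mbd1 KO 2. The 8 regions of both Mbd1 KO libraries began at 37866607 and ended at 37925571, a span of 59.0 kb. Since the alpha, beta and gamma groups follow each other in that order, this is the part of the interval on the side of the gamma genes, but the boundary of the groups in mm9 was not determined.

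The first 2 of these regions lay apart from the rest. At 37866607 to 37866670 the score percentile, the share of the library's own list at or below that score, was 72.9 in Mbd1 KO 1 and 49.4 in Mbd1 KO 2. At 37874344 to 37874345 it was 62.6 and 20.0. The 2 libraries thus listed the same places but ranked them differently.

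The other 6 stood at short and even steps, each after the first of them beginning 4174 to 5991 bp after the one before. The median step between neighbouring regions was 16533 bp over the genome, and 24.0% of all steps were no longer than 5991 bp. At 37901683 to 37901690 the percentiles were 43.6 in Mbd1 KO 1 and 30.4 in Mbd1 KO 2. The next region, at 37906555 to 37906559, had 40.2 in both libraries. In each of these 2 regions the summits of the libraries lay within a few bases of each other.

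At 37911144 to 37911151 the percentiles were 47.0 in Mbd1 KO 1 and 33.8 in Mbd1 KO 2. The region at 37915318 to 37915348 had 50.2 and 23.6, and that at 37921309 to 37921318 had 69.9 and 37.0. These 3 were middling in Mbd1 KO 1 and lower in Mbd1 KO 2. The last, at 37925558 to 37925571, was the strongest of the 8, with 76.2 and 75.3 (scores of 17.6 and 20.2). The nearest WT summit was 17671 bp from it. In the full lists the percentile was higher in Mbd1 KO 1 than in Mbd1 KO 2 in 7 of the 8 regions and equal to 3 digits in the region at 37906555. In lists of equal length Mbd1 KO 2 was the higher at 37906555 (22.1 against 11.6) and at 37925558 (67.8 against 64.8).

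The remaining 4 regions of the stretch were listed in 1 library each. Mbd1 KO 2 alone had summits at 37844763, 37849312 and 37885307, with percentiles of 3.87, 56.8 and 33.8. Mbd1 KO 1 alone had a summit at 37927942 with a percentile of 64.6, 2384 bp past the start of the strongest region.

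**Figure D2:**
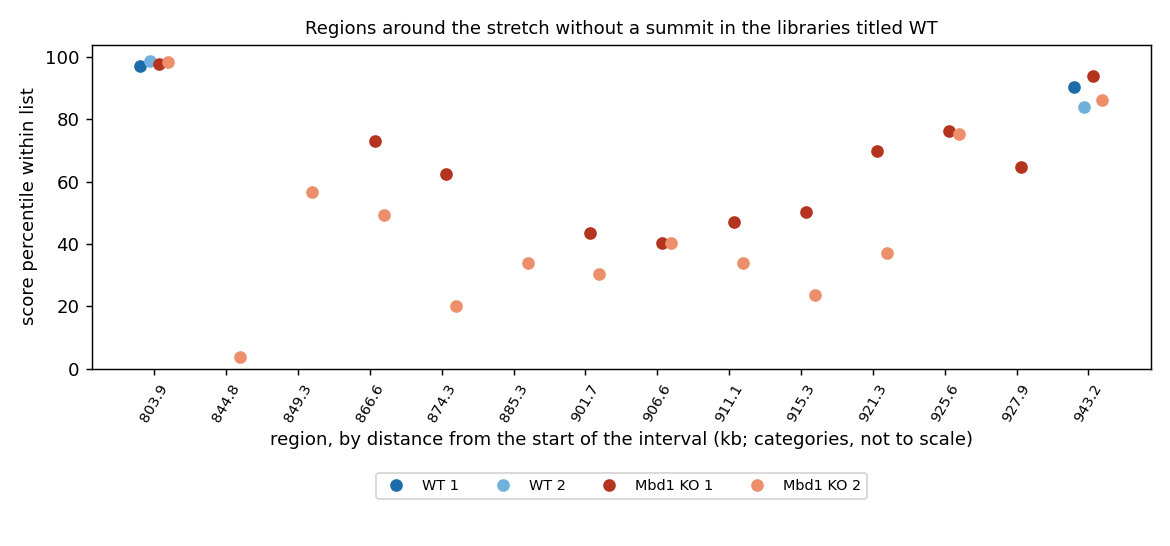
Score percentile within each library's list (vertical axis) for the 12 regions of the stretch without a WT summit and the shared region on each side of it (horizontal axis, ordered by distance from the start of the interval in kb and not to scale). Each point is a library, by title. The 2 flanking regions carry 4 points between 84.0 and 98.8, and the 12 regions between them carry points of the Mbd1 KO libraries alone, from 3.87 to 76.2.

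In the full lists no other stretch of the genome held such a row. The interval was selected on presence in the titled groups, so the ranks below describe it and test nothing. The genome held 17258 stretches between WT summits that held at least 1 region, listed in 1 or both Mbd1 KO libraries. This was the 1 stretch with 5 or more regions of both Mbd1 KO libraries, and the next highest number was 3. The longest run of consecutive regions of that kind was the 6 evenly spaced regions above, followed by 2 runs of 3, on chromosomes 3 and 8. Among these 6, only the region at 37925558 had a score of at least 10 in both Mbd1 KO libraries. In lists of equal length the region at 37915318 stood at a percentile of 1.09 in Mbd1 KO 2. The region at 37874344, before the run, lost its Mbd1 KO 2 summit there. The row thus rests largely on summits of low score. In the opposite direction no stretch without a Mbd1 KO summit held more than 2 regions of both WT libraries. That kind was also rarer over the genome in the full lists, with 808 regions against 3377. At equal list length the numbers were 1149 and 1450, and stretches were not recounted there. In windows of the interval's length, 1.05 Mb, tiled along the genome, the median was 1 region of both Mbd1 KO libraries and the highest number among 2455 windows was 9, against 11 in the interval. Of the 2 windows with 9, 1 overlaps the interval and the other lies on chromosome 13 (66150064 to 67200064). Runs, stretches and windows were counted after the interval's pattern was known. The interval was placed on its genes, while the tiled windows began at fixed steps and could split a group of regions. The counts of 11 and 9 therefore do not compare like with like.

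**Figure D3:**
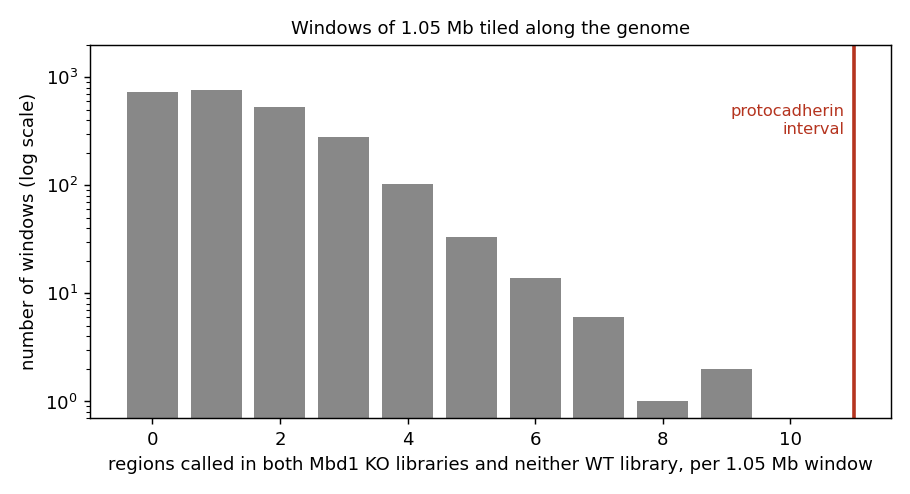
Number of regions called in both libraries titled Mbd1 KO and neither titled WT per window of 1.05 Mb (horizontal axis) against the number of windows with that count (vertical axis, log scale), for 2455 windows tiled along the genome from the first base of each chromosome. The line marks the 11 such regions of the protocadherin interval, and the highest tiled window holds 9. The interval was placed on its genes and selected with its pattern known, while the windows lay at fixed steps.

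The other 3 regions of both Mbd1 KO libraries lay nearer the start of the interval, on the side of the alpha genes. The region at 37179700 to 37179707 stood by itself, with percentiles of 72.9 in Mbd1 KO 1 and 71.3 in Mbd1 KO 2 (scores of 15.8 and 17.9), and the nearest WT summit was 22374 bp away. The regions at 37377140 to 37377163 (38.4 and 44.8) and 37377568 to 37377668 (21.6 and 21.9) were different in kind. They adjoined a strong region of all 4 libraries that begins at 37377969, and the nearest WT summits were 849 and 344 bp from them. With regions left out that had a WT summit within 1000 bp, an alternative added later, 9 of the 11 were kept.

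These 11 regions were moderate in strength, with a median above that of their class. The lower of the 2 Mbd1 KO percentiles had a median of 37.0, against 20.02 over the 3377 such regions of the genome. In 3 of the 11 the score was at least 10 in both Mbd1 KO libraries, and in 2 the lower percentile was above 50. How many of the 3377 regions pass these cuts was not counted. The authors' scores of the 11 ran from 4.56 to 17.6 in Mbd1 KO 1 and from 5.35 to 20.2 in Mbd1 KO 2. The count was as large in lists of equal length. With each list shortened to its 38142 strongest summits, 9 of the 11 kept both Mbd1 KO summits, and the interval again held 11 regions of this kind of 32 (34.4%), while the share over all regions fell to 2.52%.

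Regions listed in 3 libraries showed a related order at 2 places. At 37119851 to 37119886 the percentile was 17.2 in WT 2, 81.8 in Mbd1 KO 1 and 79.7 in Mbd1 KO 2, and WT 1 had no summit. At 37157326 to 37157435 it was 9.18 in WT 2, 50.2 in Mbd1 KO 1 and 40.2 in Mbd1 KO 2, again with none in WT 1. In the shortened lists both regions lost their WT 2 summit. The share of 3-library regions with this order over the genome was not counted, and the full lists differ in length.

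The other 2 such regions began 1510 bp apart and did not have this order. At 37308815 to 37308834 the percentile was 16.7 in WT 1, 18.6 in Mbd1 KO 1 and 3.87 in Mbd1 KO 2. At 37310325 to 37310368 it was 53.5 in WT 2, 58.1 in Mbd1 KO 1 and 27.0 in Mbd1 KO 2. In both places the WT value lay between the values of the Mbd1 KO libraries.

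The regions with the highest percentiles in the interval were shared by all libraries. Of the 38 regions, 10 (26.3%) were listed in all 4, against 32.1% of all regions and 46.1% of those in the flanks. Apart from the weakest, described below, their percentiles were 79.9 or above in every library. The lowest of the 4 percentiles had a median of 91.7, against 56.8 over the 26592 such regions of the genome and 71.3 in the flanks. The highest was at 37803898 to 37803925, with 97.2 in WT 1, 98.8 in WT 2, 97.8 in Mbd1 KO 1 and 98.5 in Mbd1 KO 2. It is also the region from which the stretch without WT summits begins. The region at 37377969 to 37378026 was close to it, with 95.3, 97.04, 97.3 and 96.7 in the same order of libraries.

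Most of the rest lay at or after the end of that stretch. The region that bounds it, at 37943242 to 37943271, had percentiles of 90.5 (WT 1), 84.0 (WT 2), 94.0 (Mbd1 KO 1) and 86.3 (Mbd1 KO 2). The region at 38011895 to 38011923 had 96.2, 98.4, 97.5 and 97.6, and that at 38037105 to 38037151 had 79.9, 85.2, 88.4 and 82.1. In these 3 the WT and Mbd1 KO values overlapped. The last 2 shared regions were at 38039957 to 38040003, with 93.7, 96.7, 95.9 and 96.05, and at 38043321 to 38043347, with 95.4, 94.2, 93.8 and 97.4, and here too the groups overlapped.

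In 3 of the 10 shared regions (30.0%) both Mbd1 KO percentiles were above both WT percentiles, and in 0 was the order reversed. Over all shared regions these shares were 33.1% and 4.76%, so the share in the interval was near that of the genome. The widest gap was at 37979050 to 37979073, with 90.1 in WT 1, 89.7 in WT 2, 92.9 in Mbd1 KO 1 and 91.9 in Mbd1 KO 2. It was followed by 37965980 to 37965998, with 82.4, 84.0, 87.1 and 85.6, and by the weakest of the 10, 37794464 to 37794537, with 58.4, 53.5, 66.4 and 58.9. The lists differ in length, so percentiles from the full lists do not compare libraries directly. In lists of equal length the groups overlapped in all 10 regions, while over the genome 16.3% were higher and 15.9% lower in both Mbd1 KO libraries. Across the 10 regions the percentiles of any 2 libraries had a Spearman's rho from 0.891 to 0.988, a description over neighbouring regions of the same libraries.

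**Figure D4:**
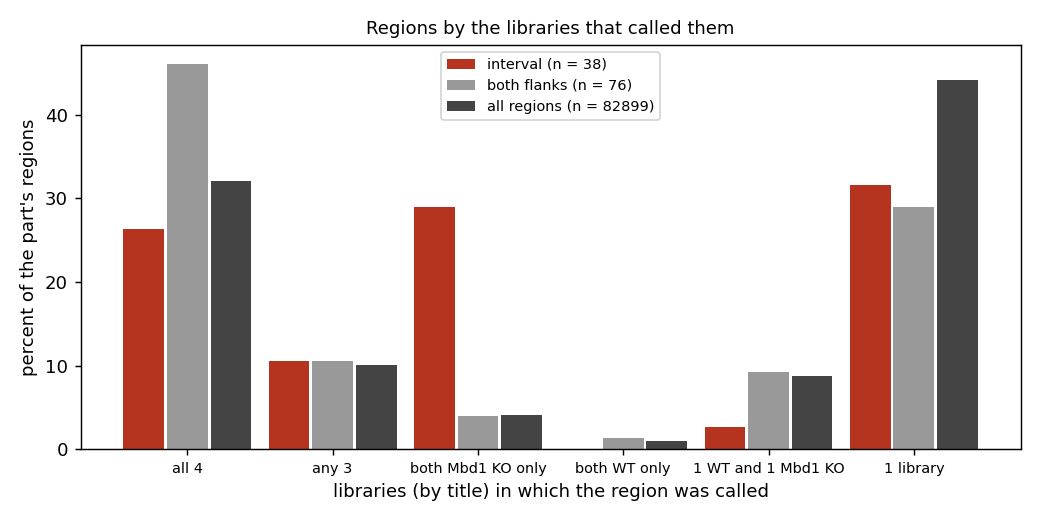
Percent of regions (vertical axis) by the libraries, by title, that listed them (horizontal axis), for the protocadherin interval (38 regions), both flanks together (76) and all regions (82899). The bar for regions of both Mbd1 KO libraries alone stands at 28.9% in the interval, against 3.95% in the flanks and 4.07% over all regions.

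The 9 regions not yet named had percentiles of 40.2 or below and were not repeated in a second library of the same title. Outside the stretch, 3 regions were listed in Mbd1 KO 1 alone (37112214, 37284344 and 37984145, with percentiles of 40.2, 7.14 and 28.1) and 3 in Mbd1 KO 2 alone (37331991, 37501281 and 37607246, with 27.0, 6.51 and 37.0). WT 2 alone had 2, at 37485640 and 37497448, with 25.5 and 9.18, and WT 1 alone had 0. The region at 37331670 to 37331674 was listed in WT 1 (27.1) and Mbd1 KO 2 (33.8). In all, 21 of the 38 regions (55.3%) had no summit in either WT library, against 33.8% of all regions, and 2 (5.26%) had none in either Mbd1 KO library, against 15.3% of all regions. The middle of the interval was nearly empty, with 187218 bp free of summits in every library between 37607246 and 37794464.

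Counted by library, the interval held 12 summits in WT 1, 15 in WT 2, 29 in Mbd1 KO 1 and 32 in Mbd1 KO 2. As a share of each list this was 0.0315% (95% exact binomial interval 0.0163 to 0.0550), 0.0322% (0.0180 to 0.0530), 0.0514% (0.0345 to 0.0739) and 0.0644% (0.0441 to 0.0909). The intervals cover counting error of summits only, and those of the WT libraries overlap those of the Mbd1 KO libraries. Both Mbd1 KO shares were above both WT shares, as they were in 18% of the 1.05 Mb windows (both were below in 16.9%), and the means were 0.0579 ± 0.0092% and 0.0318 ± 0.00049% (SD, n = 2 each). By the genotype field the means were 0.0414 ± 0.0141% for Mbd1 KO and 0.0483 ± 0.0228% for WT (SD, n = 2 each). The shares of the libraries in these groups overlapped.

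In the flanks the numbers of the 4 libraries lay closer together. The flank before the interval held 28 and 29 summits in WT 1 and WT 2 and 32 and 27 in Mbd1 KO 1 and Mbd1 KO 2. The flank after it held 22 and 21 against 26 and 23. As shares of the lists the Mbd1 KO mean was below the WT mean in both, at 0.0556% against 0.0678% before the interval and 0.0462% against 0.0513% after it. The median percentile over all of a library's summits in the interval was 90.3 in WT 1 and 84.0 in WT 2, but 66.4 in Mbd1 KO 1 and 42.5 in Mbd1 KO 2. In the flanks before and after it these medians were 71.0 and 53.4 in WT 1 and 71.1 and 71.1 in WT 2. They were 66.4 and 74.9 in Mbd1 KO 1 and 74.0 and 71.3 in Mbd1 KO 2. The interval's median thus lay above both flanks in the WT libraries and below both in Mbd1 KO 2. An average over libraries cancels these opposite differences.

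Regions as such were about as dense in the interval as beside it, with 36.2 per Mb against 42.0 in the flank before it and 35.8 in the flank after it. At the borders, the first region inside began at 37112214 and the last at 38043321. The nearest regions outside, at 36962627 to 36962671 (percentiles of 73.4, 84.9, 81.8 and 83.4 in WT 1, WT 2, Mbd1 KO 1 and Mbd1 KO 2) and at 38067902 to 38067934 (90.1, 95.6, 91.4 and 92.8), were listed in all 4 libraries. With 2 libraries against 2 an exact permutation test cannot give a p below 0.33, and no comparison in the interval was tested. Clustered protocadherin exons resemble each other, and the treatment of reads that map to several places is not stated in the labels.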

How the data were processed

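FAIRE-seq libraries of fixed, sonicated dentate gyrus were sequenced as single 50 bp reads, per the labels' protocols. Per the submitters' processing notes, Bowtie, SAMtools and MACS2 were used with build mm9. The labels state neither their versions and thresholds nor read filters or an input. The authors deposited 1 summit list per library, with a score taken as a −log10 p or q value (lowest 1.32); which of these is not stated. Scores were used to rank summits within a list and for a minimum of 10.

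Summits of any library within 250 bp were joined. The highest summit of a library gave its percentile. Joining was run on 20000 simulated regions, and 15 of 15 classes were recovered. The simulated regions all lay farther apart than the joining distance and their summits closer together. The run therefore checks the code only, and not how closely spaced regions are joined. Groups came from the titles. Alternatives were the genotype field, equal list length, a score of at least 10, joining within 100 or 1000 bp, other backgrounds and leaving out each library. Members, lists and rules were chosen with earlier results of these data known. Named in full were the shared regions, the pair-only regions and the non-overlapping shared regions with the widest gaps. The same replicate numbers occur in both groups; the labels do not say that they mark a pairing. No sequence was printed. Python 3.11.15, numpy 2.4.6, pandas 2.3.3, scipy 1.17.1 and matplotlib 3.10.9 were used.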

Additional observations from a re-analysis of the deposited data

How the results depend on the processing

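The 11 regions of both Mbd1 KO libraries became 9 when joining within 1000 bp, 11 within 100 bp and at equal list length, 4 at a score of at least 10 and 0 with the groups of the genotype field. As shares of the interval's regions these were 25.7% against 4.21% of all regions within 1000 bp and 28.9% against 3.70% within 100 bp. They were 34.4% against 2.52% at equal list length and 21.1% against 4.18% at a score of at least 10. With the genotype field 0 stood against 1.67%. The regions numbered 3 when both scores had to reach 10 and absence was judged in the full lists, an alternative added later. The share over all regions was not counted for it. With 1 library left out the count was between 12 (WT 1 left out) and 17 (Mbd1 KO 1 left out), since fewer conditions had to be met. The share of such regions rose over the genome too, so the interval stood out less: 31.6% of its regions against 7.07% of all regions with WT 1 left out, 38.9% against 9.33% with WT 2, 50.0% against 18.8% with Mbd1 KO 1 and 46.9% against 25.6% with Mbd1 KO 2 left out, compared with 28.9% against 4.07% with all libraries. For WT the count without 1 library ran from 0 to 2. The 2 were among 38 regions with WT 1 left out, where 11.6% of all regions were of that kind. The difference in the share of summits (Mbd1 KO minus WT, 0.0261 percentage points) was 0.0185 at a score of at least 10, 0.0367 at equal list length, −0.00684 with the genotype field and from 0.0196 to 0.0326 without 1 library. A replicate block gives the same 0.0261 by arithmetic and is no separate check. By replicate number the difference was 0.01997 in pair 1 and 0.0323 in pair 2. The shared regions higher in both Mbd1 KO libraries numbered 3, 0 at equal list length, 1 with the genotype field (3 lower) and 4 to 8 without 1 library (0 to 3 lower). Over all shared regions the share that was higher was 33.1% in the full lists and 16.3% at equal list length. For the genotype field and without 1 library that share was not counted, so those counts cannot be set against the genome. The density ratio to the flanks, for regions of any library, was 0.929. It turned to 1.01 against the flank after the interval alone. The median percentile, interval minus flanks, averaged over libraries was 0.484 (SD 23.0). It was −6.60 without WT 1, −3.63 without WT 2, 10.9 without Mbd1 KO 2 and 16.6 at a score of at least 10. Against the rest of chromosome 18 the ratio was 1.05 and this mean 22.1. Depth is not known, so presence in a list cannot be corrected for it.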
